A study of Mus musculus with 6 samples.

Results

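The 39 genes examined here encode proteins of the large (60S) subunit of the cytosolic ribosome. They were chosen by name, from Rpl3 to Rpl41 with the P stalk genes Rplp0, Rplp1 and Rplp2. Some Rpl genes within that range are not on the list, so it is not the whole subunit. No cut-off on a measured value was used, but earlier results of these data were known when the genes were chosen. Of these, 27 are among the 8941 genes listed in the tables and all 27 passed the filter on low values. The other 12 are not analysed here, namely Rpl3, Rpl5, Rpl9, Rpl10, Rpl10a, Rpl12, Rpl13, Rpl24, Rpl27, Rpl27a, Rpl35 and Rpl36. The tables carry Ensembl identifiers only, and the pairing with symbols came with the gene list. The reference gene table held all 39 symbols but no Ensembl identifiers, so the pairing was not checked against it.

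The samples are livers of male C57BL/6JRj mice aged 11 to 12 weeks, an inbred strain with no transgene or treatment named and kept for 2 weeks in alternating light and dark phases of 12 h each. Livers were taken at zeitgeber time 0 (ZT0, lights on), ZT2 and ZT12 (lights off), with 2 libraries per time point, each from the pooled lysates of 2 mice. All lysates contained cycloheximide, which halts elongating ribosomes, and RNase I was added at 650 U for 45 min. The libraries held disome footprints, the messenger RNA fragments protected by a pair of stacked ribosomes, with 6346387 to 12322651 recovered reads each. Between 4 and 250 of the 8941 genes were listed at 0 in a library, the largest number in ZT2 replicate 2, and none of the 27 genes was among them. In these tissue libraries a change in cell makeup and a change in RNA per cell cannot be told apart, and the tissue label was not checked against marker genes.

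The large subunit carries the peptidyl transferase centre, where peptide bonds form, and the exit tunnel through which the new chain leaves. Its proteins are made in similar molar amounts and assembled with ribosomal RNA in the nucleolus. Their messenger RNAs belong to the TOP class, whose transcripts begin with a C followed by a run of pyrimidines (the 5′ terminal oligopyrimidine tract). Translation of TOP messenger RNAs is controlled by the growth kinase mTORC1, and in mouse liver it is known to follow the daily cycle of feeding. A disome footprint marks a ribosome queued behind another, so the disome level of a gene reflects its transcript amount, its translation rate and the frequency of pauses. Monosome footprints and total RNA were not analysed here.

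Annotated transcription starts were searched for such tracts. RefSeq starts (GRCm38.p6) were found for 21 of the 27 genes, 26 starts in all. A C followed by at least 4 bases that are each C or T stood at 6 of these 26 starts (23.1%), against 2.51% of all 32851 starts in the table. The letters CTTTCC, searched on both strands of the 30 bases around the start, were also in 6 of the 26 windows (23.1%), against 2.68% of all windows, and both features overlap in part. The 6 starts with such a run are shown first, 15 bases before the start and 15 from it, with the run in capitals, followed by 3 genes without one at the annotated start whose levels are described below.
Rpl14, chr9:120571502-120571531, plus strand: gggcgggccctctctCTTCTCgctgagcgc
Rpl15, chr14:18270972-18271001, minus strand: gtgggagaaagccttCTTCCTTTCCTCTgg
Rpl28, chr7:4792950-4792979, plus strand: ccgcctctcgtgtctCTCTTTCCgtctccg
Rpl35a, chr16:33056467-33056496, plus strand: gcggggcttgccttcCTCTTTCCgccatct
Rpl38, chr11:114668565-114668594, plus strand: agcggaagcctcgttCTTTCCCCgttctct
Rplp2, chr7:141447636-141447665, plus strand: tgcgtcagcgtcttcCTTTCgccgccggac
Rpl26, chr11:68901551-68901580, plus strand: ctcgcggcaacttacagaaccggaagtcgc
Rplp0, chr5:115559452-115559481, plus strand: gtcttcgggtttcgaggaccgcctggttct
Rpl41, chr10:128549154-128549183, minus strand: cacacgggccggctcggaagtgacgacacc
An annotated start can lie some bases away from the start used in liver, so a missing run says only that these letters are not at that position. Rpl35a has 3 annotated starts, and 1 of them carries the run.

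Disome levels of large subunit genes were mostly above those of other listed genes, and they differed widely from one another. The median of the 27 means was 75.5 RPKM, against 7.47 RPKM over all 8941 listed genes, and 24 of the 27 genes lay above the latter. A mean above 100 RPKM was found for 10 of them, against 11.3% of all listed genes, and 4 were below 10 RPKM. These genes are short, with recovered lengths of 75 to 1257 nt and a median of 420.0 nt, against 1398 nt over all listed genes, and RPKM was higher on short genes (Spearman's rho across all listed genes -0.47, across the 27 genes -0.37). Compared with listed genes of 0.8 to 1.25 times their own length, 20 of the 27 lay above the median. Their median percentile was 72.2, against 86.5 among all listed genes. For the shortest genes these groups were small, with 3 genes for Rpl41, 18 for Rpl30 and 22 for Rpl39, each gene itself included. Rpl30 was matched at a recovered length of 141 nt, which is shorter than its known coding sequence. The 27 genes together held 0.129% ± 0.0432 (SD, n = 6) of all recovered reads.

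**Figure D1:**
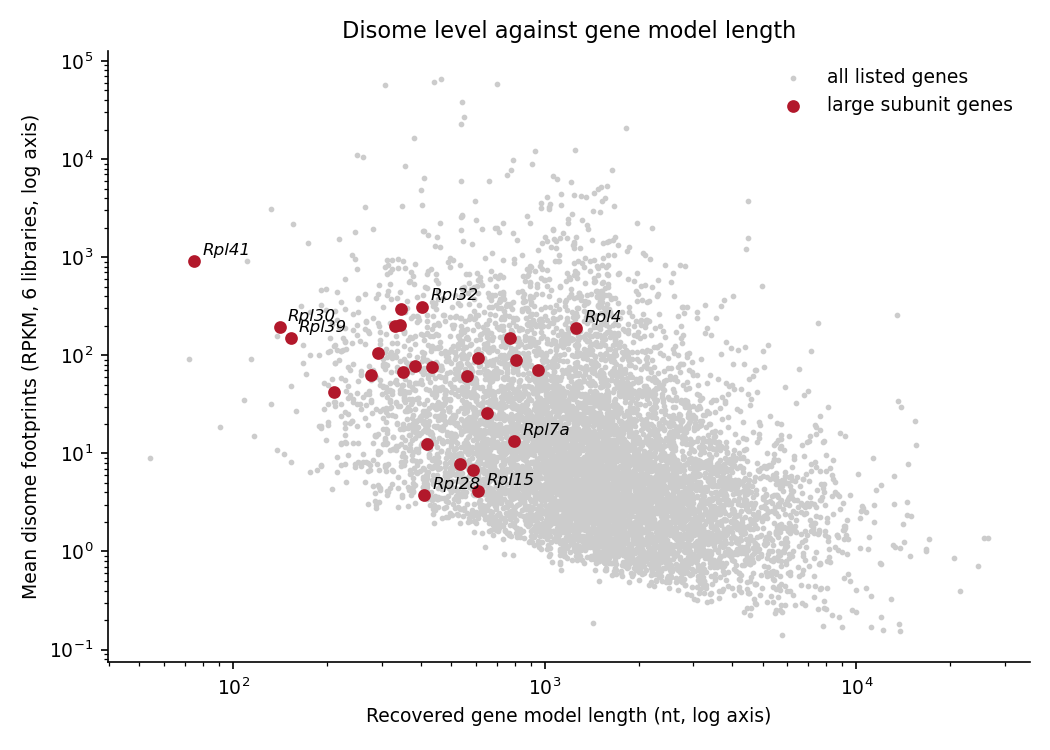
Mean disome level over 6 libraries (RPKM, log axis) against recovered gene model length (nt, log axis) for all listed genes (grey) and 26 of the 27 large subunit genes (red). The large subunit genes lie at lengths of 75 to 1257 nt and span means of 3.73 to 909 RPKM.

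Rpl41 (ENSMUSG00000093674) was the highest of these genes by mean RPKM. It encodes the shortest protein of the ribosome, a peptide rich in arginine and lysine that lies between the subunits, and its gene model had 75 nt. Its levels were 829 and 704 RPKM in the ZT0 pair, 1117 and 908 RPKM in the ZT2 pair and 776 and 1119.9 RPKM in the ZT12 pair, from 407 to 1037 reads. The 3 time points overlapped except that both ZT2 libraries lay above both ZT0 libraries, and no comparison passed the test (smallest limma adjusted p = 0.47). By mean RPKM, Rpl41 was 2.91 times as high as the next gene, Rpl32, and 244 times as high as the lowest, Rpl28. These ratios rest on dividing by its very short gene model. By recovered reads Rpl41 was below Rpl4, with 905 to 4267 reads, in every library.

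Next to Rpl41 came Rpl32, Rplp2, Rplp1, Rpl35a, Rpl30, Rpl4 and Rpl8, with means of 312 down to 150.5 RPKM. The place of Rpl30 in this order is uncertain, since its recovered gene model of 141 nt is shorter than its known coding sequence and RPKM divides by length. The lowest were Rpl23, Rpl11, Rpl19, Rpl15 and Rpl28, with means of 12.4 down to 3.73 RPKM, although each ribosome holds their proteins in the same number as most others. Rpl11 encodes a protein of the 5S ribonucleoprotein particle, which can bind MDM2 and so stabilise p53. It had 9.57 and 6.32 RPKM in the ZT0 pair, 2.73 and 15.8 RPKM in the ZT2 pair and 4.86 and 8.04 RPKM in the ZT12 pair. Rpl15, a core protein of the subunit, had 4.87 and 4.88 RPKM in the ZT0 pair, 5.03 and 2.54 RPKM in the ZT2 pair and 2.37 and 5.03 RPKM in the ZT12 pair. For both genes the 3 time points overlapped.

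The counts behind the low genes were small. All 5 had under 100 reads in every library, while 15 of the 27 genes had at least 100 reads in each. Ribosomal protein genes have many near-identical processed pseudogenes, and how reads matching several copies were counted is not given, so these levels are uncertain. RefSeq holds pseudogenes named after 22 of the 27 genes, with 14 for Rpl7a, 12 for Rpl19 and 10 for Rpl30, and a median of 1 per gene. Of the 5 lowest genes, Rpl11 and Rpl23 have 0, Rpl28 has 4, Rpl15 has 5 and Rpl19 has 12. Rpl30 is among the highest genes by mean RPKM, a place that is uncertain because of its short gene model. Among the 12 genes not analysed here, 11 have at least 1, with a median of 3.5. Across the 27 genes, Spearman's rho between mean RPKM and the number of named pseudogenes was -0.30. This covers only pseudogenes that carry the parent's name.

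**Figure D2:**
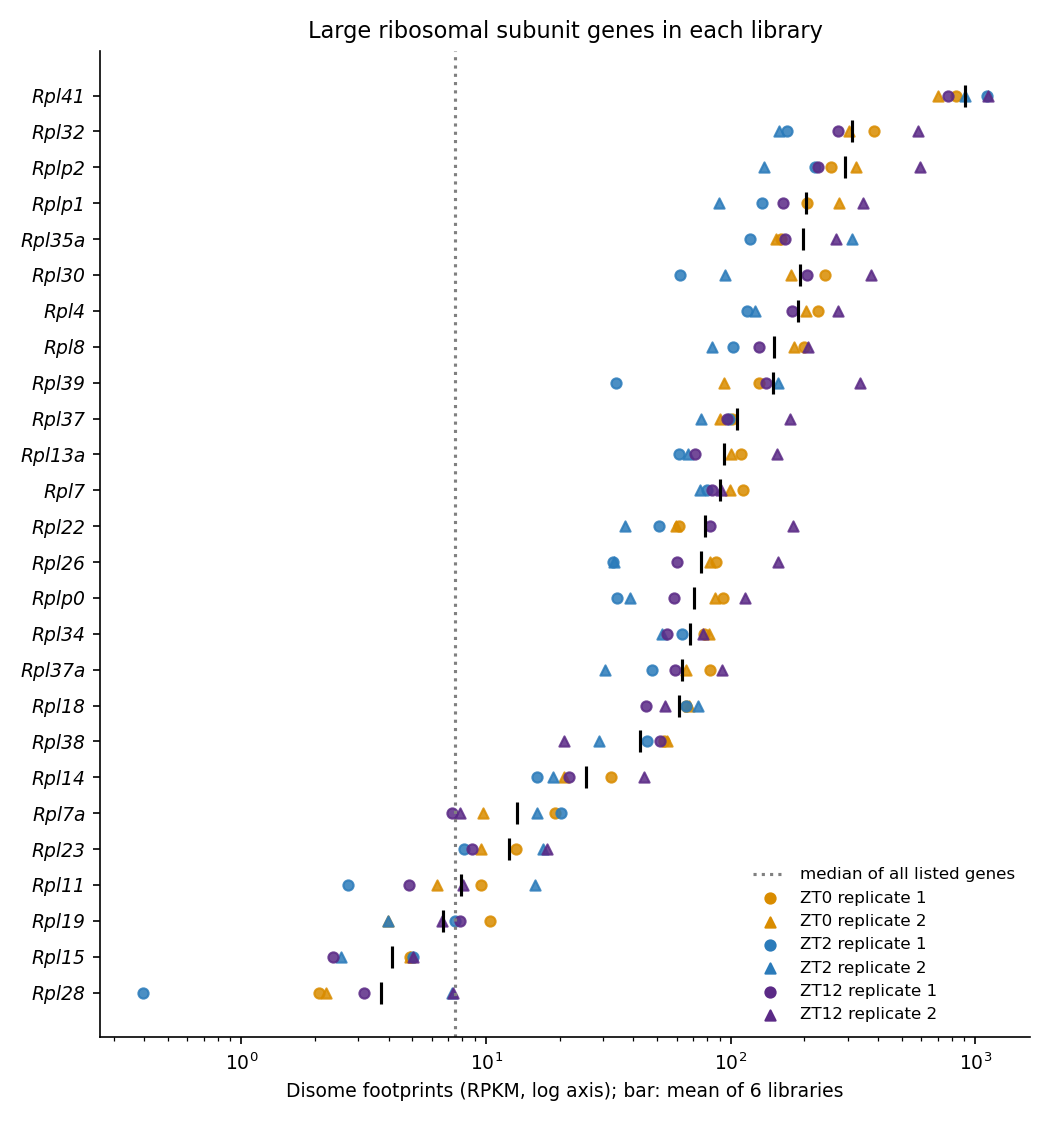
Disome footprints (RPKM, log axis) of 26 of the 27 large subunit genes in each of 6 libraries, ordered by their mean (black bar); colour gives the time point, shape the replicate, and the dotted line the median of all listed genes. The blue ZT2 points are to the left in most of the upper genes, and ZT12 replicate 2 is the highest library in 17 of 27.

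The first comparison asked how these genes stood 2 h after lights on. Disome levels, taken as means of log2(RPKM + 1), were lower at ZT2 than at ZT0 in 21 of 27 genes, against 53.6% of all tested genes. The median log2 change was -0.48 (middle 50%, -0.88 to -0.15), against -0.04 over all tested genes. No large subunit gene passed the test (0 of 27; 0.0239% of tested genes were called, all of them higher at ZT2), and the smallest limma adjusted p was 0.21. At an unadjusted limma p under 0.05, 9 of the 27 were lower and 0 higher, against 8.27% and 5.4% of tested genes. The libraries did not overlap, with ZT2 lower, in 16 of 27 genes, against 24.9% of tested genes. Voom on the recovered reads called 0 of the 27 as well. As a share of all recovered reads, the 27 genes held 0.142% and 0.131% at ZT0 and 0.0872% and 0.0890% at ZT2, so the ZT2 libraries were close together and both lower.

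Of the P stalk genes, Rplp0 and Rplp1 had log2 changes below the middle 50% of the 27 genes and Rplp2 lay within it. Rplp0 (ENSMUSG00000067274) encodes the base of the stalk that recruits and activates the elongation factors, and Rplp1 and Rplp2 encode its acidic arms. Rplp0 had 93.3 and 85.9 RPKM in the ZT0 pair against 34.4 and 38.9 RPKM in the ZT2 pair, a log2 change of -1.27 ± 0.30 (SE, limma adjusted p = 0.21). Rplp1 had 205 and 276 RPKM in the ZT0 pair against 134 and 89.9 RPKM in the ZT2 pair. Its log2 change was -1.11 ± 0.37 (SE, limma adjusted p = 0.29). Rplp2 had 258 and 325 RPKM in the ZT0 pair against 221 and 137 RPKM in the ZT2 pair, a log2 change of -0.73 ± 0.44 (SE, limma adjusted p = 0.49). In all 3 genes both ZT2 libraries lay below both ZT0 libraries, and none passed the test.

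Of the 5 genes grouped here as encoding proteins that line or surround the exit tunnel, Rpl4, Rpl19, Rpl26 and Rpl39 are listed. The group need not hold every such protein. Rpl4, which reaches into the tunnel wall and is the longest of the 27 genes, had 228 and 203 RPKM in the ZT0 pair against 117 and 126 RPKM in the ZT2 pair, with a log2 change of -0.82 ± 0.23 (SE, limma adjusted p = 0.22). Rpl26 (ENSMUSG00000060938), at the tunnel's rim, had 87.1 and 82.0 RPKM in the ZT0 pair against 33.1 and 33.4 RPKM in the ZT2 pair, a log2 change of -1.32 ± 0.39 (SE, limma adjusted p = 0.25). Both genes were lower in each ZT2 library than in any other library. Rpl19, whose protein lies near the tunnel exit and bridges to the small subunit, had 10.4 and 3.97 RPKM in the ZT0 pair, 7.44 and 3.97 RPKM in the ZT2 pair and 7.79 and 6.61 RPKM in the ZT12 pair, and its time points overlapped. Rpl39, a small protein of the tunnel wall and the third shortest gene here, had 129.9 and 94.1 RPKM at ZT0 but 33.9 and 156 RPKM at ZT2, so that the ZT2 libraries lay on either side of ZT0.

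The largest difference belonged to Rpl30 (ENSMUSG00000058600), whose protein sits at the interface with the small subunit and also binds selenocysteine insertion elements. Rpl30 had 243 and 176 RPKM in the ZT0 pair against 62.0 and 94.8 RPKM in the ZT2 pair, a log2 change of -1.42 ± 0.34 (SE, limma adjusted p = 0.21). Rpl32, a surface protein whose gene is often used as a reference in expression assays, had 386 and 304 RPKM in the ZT0 pair against 170.4 and 158 RPKM in the ZT2 pair, a log2 change of -1.06 ± 0.33 (SE, limma adjusted p = 0.28). Rpl8, a core protein close to the peptidyl transferase centre, had 199 and 181 RPKM at ZT0 against 102 and 83.6 RPKM at ZT2, with a log2 change of -1.03 ± 0.24 (SE, limma adjusted p = 0.21).

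A few genes went the other way. Rpl41 had the largest positive log2 change, 0.40 ± 0.22 (SE), and was the only one of the 27 with both ZT2 libraries above both ZT0 libraries, against 21.5% of tested genes. Rpl7a followed with 0.37 ± 0.33 (SE), from 19.2 and 9.75 RPKM at ZT0 to 20.3 and 16.1 RPKM at ZT2, and Rpl35a with 0.30 ± 0.43 (SE). None of the 3 passed the test (limma adjusted p = 0.47 to 0.79).

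**Figure D3:**
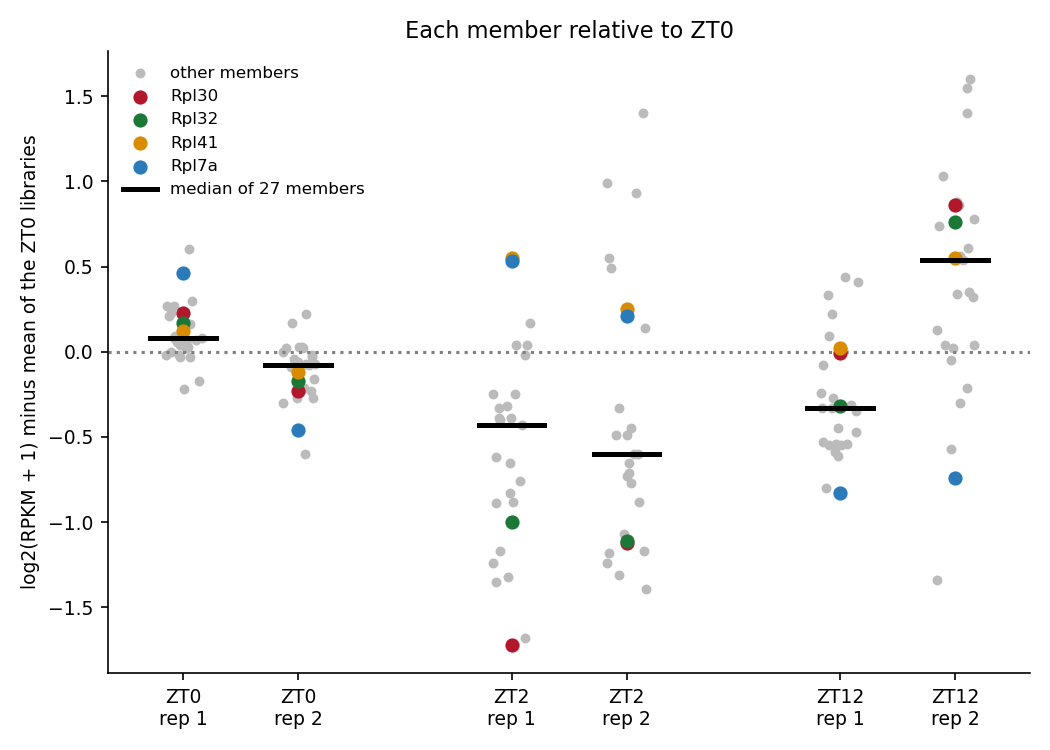
Level of each of the 27 genes in each library as log2(RPKM + 1) minus the mean of the ZT0 libraries; coloured points are 4 named genes, grey points the others, black bars the median of the 27. The medians are -0.43 and -0.60 at ZT2, -0.33 in ZT12 replicate 1 and 0.54 in ZT12 replicate 2.

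The second comparison set the end of the light phase, ZT12, against ZT2. Levels, again as means of log2(RPKM + 1), were higher at ZT12 than at ZT2 in 20 of 27 genes, against 52.3% of all tested genes. The median log2 change was 0.71 (middle 50%, 0.02 to 1.09), against 0.03 over all tested genes. Rpl30 rose and was the only one of the 27 called (1 of 27, against 1.07% of tested genes called higher and 2.06% in either direction). It had 62.0 and 94.8 RPKM in the ZT2 pair and 205 and 374.5 RPKM in the ZT12 pair, a 3.69-fold higher mean with a log2 change of 1.84 ± 0.34 (SE, limma adjusted p = 0.045). Both ZT12 libraries lay above both ZT2 libraries. This call was lost in 10 of 20 alternatives, which are not separate checks. The alternative with an adjusted p threshold of 0.1 used the main fit, so it could not lose the call. Fitting only the 4 libraries compared and leaving out either ZT0 library gave nearly the same test, with a log2 change of 1.84 in each. The lowest limma adjusted p of Rpl30 was 0.023, with voom on the recovered reads. Voom called 4 of the 27, Rpl4, Rpl22, Rpl30 and Rpl32, and 356 of the 8355 tested genes. Without ZT12 replicate 2 the log2 change was 1.40 (limma adjusted p = 0.26), without ZT12 replicate 1 it was 2.27 (0.066), without ZT2 replicate 1 it was 1.54 (0.055), and without either ZT0 library it stayed at 1.84 (0.10).

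Apart from Rpl30, at an unadjusted limma p under 0.05 there were 9 more genes higher and 2 lower, which makes 10 higher of 27 against 10.0% of tested genes and 2 lower against 9.17%. The libraries did not overlap, with ZT12 higher, in 13 of 27 genes (23.6% of tested genes). Rpl39 came next to Rpl30 by its log2 change, 1.56 ± 0.69 (SE, limma adjusted p = 0.28), with 139 and 338 RPKM at ZT12, but one of its ZT2 libraries lay between these. Rpl26 had 60.5 and 157 RPKM at ZT12 and a log2 change of 1.52 ± 0.39 (SE, limma adjusted p = 0.10). Rpl22, an RNA-binding protein at the outer surface that mice can live without, had 51.0 and 36.8 RPKM in the ZT2 pair and 82.5 and 179.5 RPKM in the ZT12 pair, a log2 change of 1.47 ± 0.35 (SE, limma adjusted p = 0.092). Neither Rpl26 nor Rpl22 overlapped between the 2 time points.

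Unlike Rpl30, the other genes already described as low at ZT2 had higher values at ZT12 without passing the test in the main fit. Rpl32 had 274 and 581 RPKM at ZT12, Rplp0 58.4 and 114 RPKM, Rplp1 163 and 346 RPKM and Rplp2 226 and 592 RPKM. Rpl4 had 178 and 275 RPKM and Rpl8 had 130.5 and 207 RPKM. Their log2 changes from ZT2 to ZT12 were 0.83 to 1.28, with limma adjusted p from 0.11 to 0.25. In 13 of the 27 genes both ZT2 libraries lay below all 4 others, against 12.8% of tested genes. These were Rpl4, Rpl7, Rpl8, Rpl13a, Rpl14, Rpl22, Rpl26, Rpl30, Rpl32, Rpl37a, Rplp0, Rplp1 and Rplp2.

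The lowest log2 changes from ZT2 to ZT12 were in Rpl7a, Rpl18 and Rpl38. Rpl7a, a protein of the solvent side, had 20.3 and 16.1 RPKM in the ZT2 pair and 7.27 and 7.82 RPKM in the ZT12 pair, a log2 change of -1.16 ± 0.33 (SE, limma adjusted p = 0.13). Rpl18 had 65.5 and 73.4 RPKM in the ZT2 pair and 44.9 and 53.7 RPKM in the ZT12 pair, with a log2 change of -0.49 ± 0.18 (SE, limma adjusted p = 0.21). Both genes had lower values in each ZT12 library than in any ZT2 library, the only 2 of 27 to do so (22.3% of tested genes), and neither passed the test. Rpl38, known for its part in the translation of Hox messenger RNAs, overlapped between these time points, with 45.5 and 29.0 RPKM in the ZT2 pair and 51.3 and 20.8 RPKM in the ZT12 pair.

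**Figure D4:**
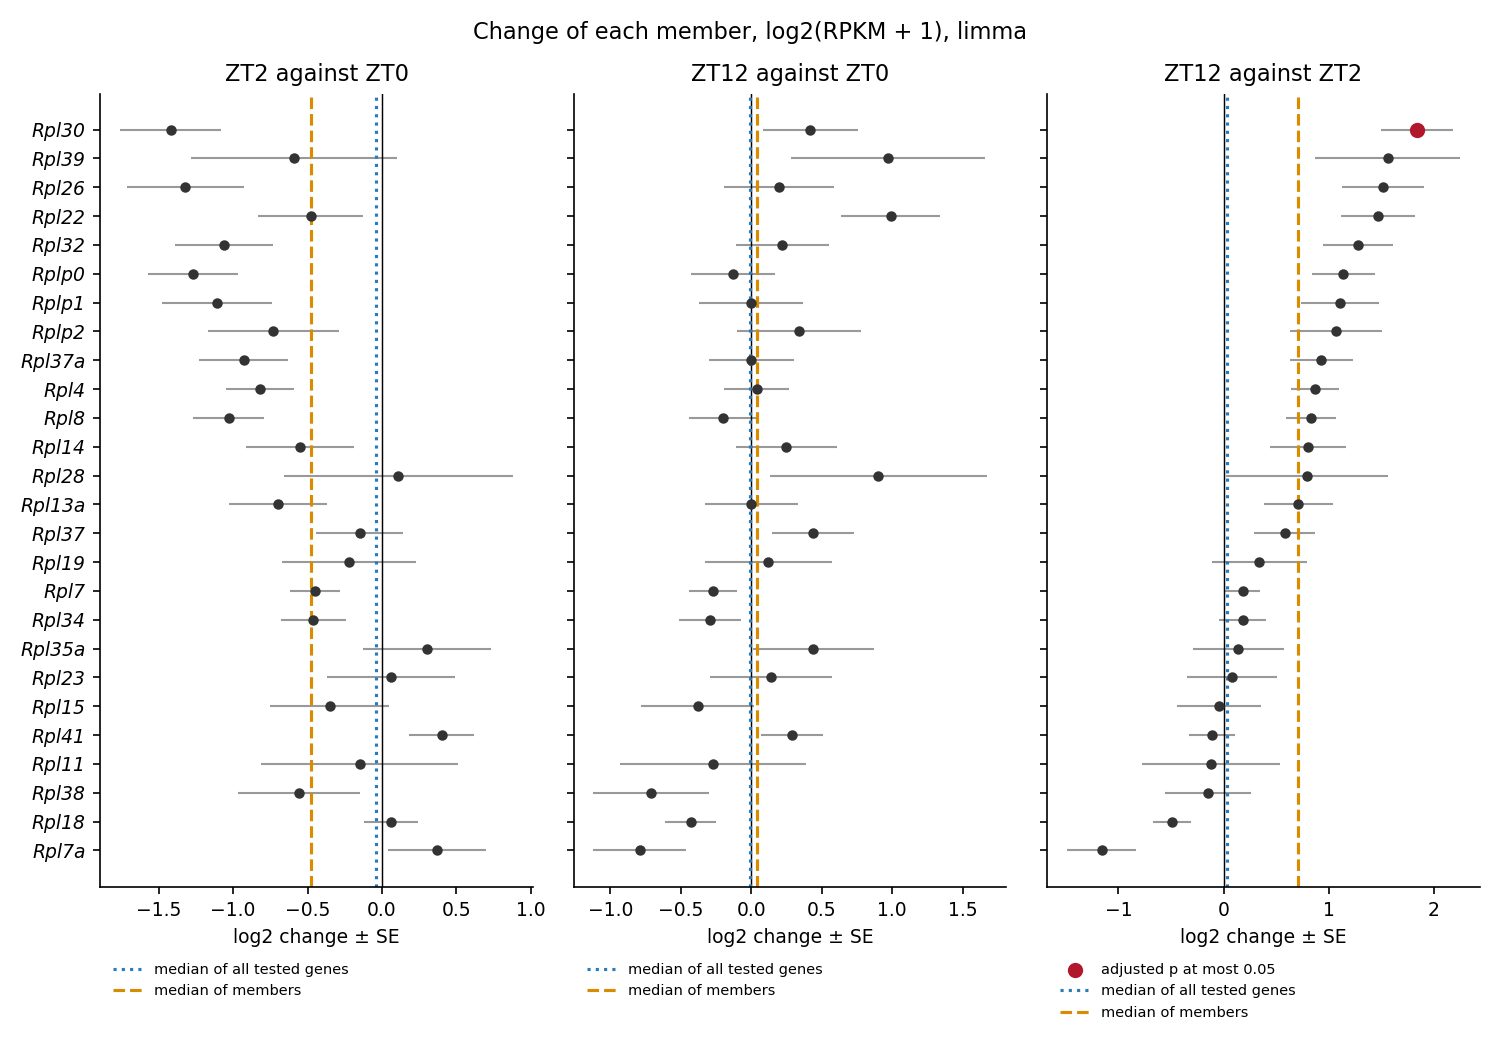
Log2 change ± SE of 26 of the 27 genes in the 3 comparisons, from limma on log2(RPKM + 1), ordered by ZT12 against ZT2; dashed and dotted lines are the medians of the 27 genes and of all tested genes. Rpl30 at 1.84 (red) is the only one of the 27 past the threshold, and the member median is -0.48, 0.04 and 0.71 from left to right.

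The third comparison set lights off against lights on. The median log2 change from ZT0 to ZT12 was 0.04 over the 27 genes and -0.01 over all tested genes. By means of log2(RPKM + 1), 16 of 27 were higher at ZT12 (49.2% of tested genes). None passed the test (0 of 27, against 0.946% of tested genes in either direction; smallest limma adjusted p = 0.27), and at an unadjusted limma p under 0.05 there were 1 higher and 2 lower (6.14% and 8.34%). Voom on the recovered reads called 0 of the 27. The libraries did not overlap in 4 genes with ZT12 higher (26.6%) and 6 with ZT12 lower (27.8%). The highest log2 changes were 0.99 ± 0.35 (SE) in Rpl22, which had 61.7 and 59.8 RPKM at ZT0, 0.97 ± 0.69 in Rpl39 and 0.90 ± 0.77 in Rpl28. The lowest were -0.79 ± 0.33 in Rpl7a and -0.71 ± 0.41 in Rpl38, which had 53.4 and 55.0 RPKM at ZT0. The 3 comparisons share their libraries and are not independent of each other, and the F test over the time points called 0 of 27 genes (1.26% of tested genes), with 10 at an unadjusted limma p under 0.05 (18.6%).

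The 2 libraries of ZT12 differed for these genes more than for genes in general. Replicate 2 was above replicate 1 in 24 of 27 genes, against 50% of tested genes, and the median difference was 0.84 on the log2(RPKM + 1) scale, against 0.00 over all tested genes. Between the ZT0 libraries the median difference was -0.16, with replicate 2 higher in 7 of 27 (48.7% of tested genes), and between the ZT2 libraries it was -0.11, with replicate 2 higher in 12 of 27 (47.7%). The 27 genes held 0.118% of the reads of ZT12 replicate 1 and 0.204% of those of ZT12 replicate 2, on totals of 12322651 and 11904184 reads. Replicate 2 was the highest of all 6 libraries in 17 of 27 genes, against 20.0% of tested genes. Rplp2 and Rpl26 had the widest gaps among genes above 50 RPKM, with ratios of 2.61 and 2.59. Rpl38 ran the other way, at 51.3 RPKM in replicate 1 and 20.8 RPKM in replicate 2, a ratio of 2.46.

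The direction from ZT0 to ZT12 depended on which of these libraries was used. Without ZT12 replicate 2 the median log2 change of the 27 genes was -0.33, and 20 of 27 lay below their ZT0 mean in ZT12 replicate 1 (50.7% of tested genes). Without ZT12 replicate 1 it was 0.54, and 20 of 27 lay above their ZT0 mean in ZT12 replicate 2 (48.5%). From ZT2 to ZT12 the median stayed positive, at 0.31 without ZT12 replicate 2 and 1.16 without ZT12 replicate 1. The median from ZT0 to ZT2 uses no ZT12 library, and each ZT2 library alone gave -0.43 (replicate 1) and -0.60 (replicate 2). Over the 3915 tested genes of 75 to 1257 nt, a class added after the values were seen, the median difference between the ZT12 replicates was -0.05, the median log2 change from ZT0 to ZT2 was -0.09 and that from ZT2 to ZT12 was 0.00. What set ZT12 replicate 2 apart was not tested.

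**Figure D5:**
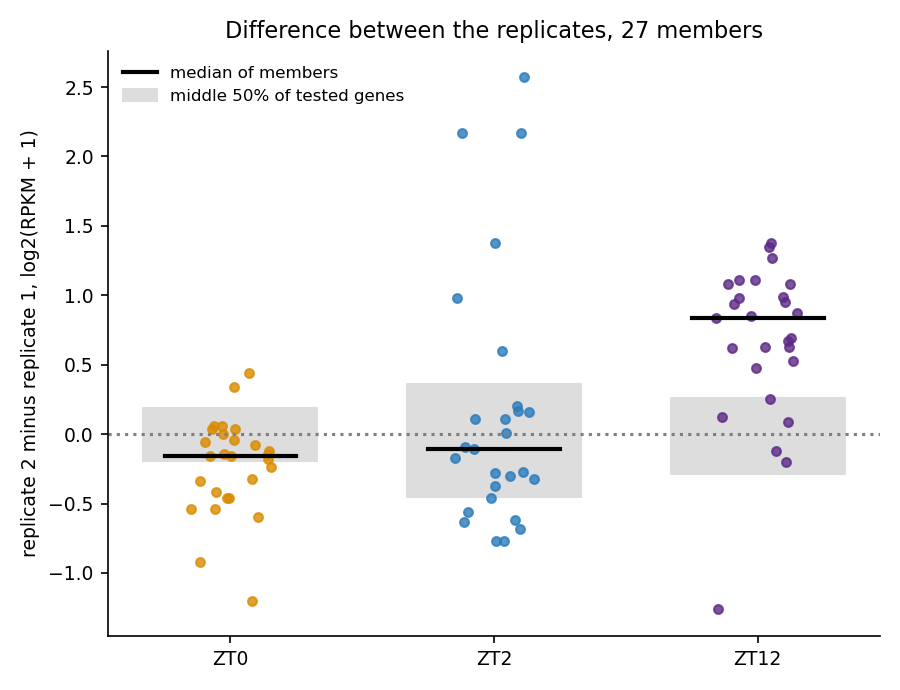
Difference between replicate 2 and replicate 1 on the log2(RPKM + 1) scale for the 27 genes at each time point; black bars are their medians, grey boxes the middle 50% of all tested genes. At ZT12 the median is 0.84 and 24 of 27 genes are above 0, while at ZT0 and ZT2 the medians are -0.16 and -0.11.

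At ZT2 the replicates of these genes were about as far apart as those of genes in general. The median size of the difference was 0.37 over the 27 genes and 0.40 over all tested genes on the log2(RPKM + 1) scale, and 4 of 27 differed over 2-fold on that scale (14.4% of tested genes). By RPKM itself, replicate 2 was at least 2-fold above replicate 1 in Rpl28, Rpl11, Rpl39, Rpl35a and Rpl23, with RPKM ratios of 18.4, 5.78, 4.6, 2.62 and 2.10. Rpl28, which has no counterpart in budding yeast, had 1 read in ZT2 replicate 1 (exact Poisson 95% interval 0.0253 to 5.57) and 23 reads in replicate 2 (14.6 to 34.5), or 0.394 and 7.26 RPKM. Its other libraries had 2.07 and 2.21 RPKM at ZT0 and 3.16 and 7.29 RPKM at ZT12. Rpl39 had 32 reads (21.9 to 45.2) and 184 reads (158 to 213) at ZT2, and Rpl35a, a gene mutated in some patients with Diamond-Blackfan anaemia, had 243 reads (213 to 276) and 794 reads (739.7 to 851). The intervals cover counting error only, on libraries of unequal depth, and the genes were picked for this gap. Rpl35a had 160.4 and 153 RPKM in the ZT0 pair, 119 and 312 RPKM in the ZT2 pair and 167 and 270.2 RPKM in the ZT12 pair. Rpl23, a protein of the subunit interface that can bind MDM2, had 13.2 and 9.57 RPKM in the ZT0 pair, 8.10 and 17.0 RPKM in the ZT2 pair and 8.72 and 17.7 RPKM in the ZT12 pair.

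The remaining genes lay between these extremes, and those picked out here beyond the naming rule were chosen after their values were seen. Rpl7, Rpl34, Rpl41 and Rpl18 varied least among the 27, with highest libraries 1.5, 1.56, 1.59 and 1.63 times the lowest. Rpl13a, whose protein has a known role outside the ribosome in silencing inflammatory transcripts, had 110.0 and 99.9 RPKM in the ZT0 pair, 61.4 and 66.7 RPKM in the ZT2 pair and 71.3 and 154.5 RPKM in the ZT12 pair. Rpl37 and Rpl37a, both zinc-binding proteins, had means of 106 RPKM ± 34.6 and 62.9 RPKM ± 22.4 (SD, n = 6). Rpl14 had a mean of 25.7 RPKM ± 10.6 (SD, n = 6). Both ZT2 libraries lay below all others in 12.8% of tested genes. They did so in 2 of the 6 genes with a C and pyrimidine run at an annotated start, Rpl14 and Rplp2. Among the 15 genes with an annotated start and no such run, they did so in 6, Rpl4, Rpl13a, Rpl22, Rpl26, Rpl37a and Rplp0. Rpl7a, among these 15, has 7 pyrimidines at its annotated start but no leading C. Since annotated starts can be some bases off, these counts do not sort the genes by their TOP tract.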

How the data were processed

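Each library is a pool of livers, and the authors deposited 1 table of RPKM values per library (reads over gene model length in kilobases, with a scale for each library). The tools named in the submitters' processing notes are Bowtie2 2.3.0, STAR, cutadapt, CASAVA 1.82, StringTie and edgeR, and the builds are mm10 and GRCm38.p2. What each tool did, which genes were kept and how reads with several matches were handled is not given in the sources used here. Whole reads were recovered from the steps in the RPKM values for 8941 of 8941 genes, at a relative tolerance of 2e-12, and 95.16% of the recovered lengths were multiples of 3, as coding lengths are, although single lengths can differ from the known coding sequence (Rpl30). These reads served for depth and shares and for 1 alternative test (voom with TMM factors). Intervals cover counting error only.

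Values of log2(RPKM + 1) were tested with limma 3.58.1 (R 4.3.3) for the 8355 genes that averaged 1 RPKM or more, with all 6 libraries in 1 fit of time point means (3 residual degrees of freedom), a variance trend and Benjamini-Hochberg adjustment over all genes tested. Adjusted p-values are from this fit unless another setting is named. The fit was tested on simulated data. The rule named the 8 members with the highest and the 5 with the lowest mean, the 3 largest rises and falls in each comparison, called members, the P stalk, 5S particle and exit tunnel groups and the 2 shortest members. Counts and medians cover all 27 listed members, but 1 of them is not reported here by name or drawn in the plots that show genes by name or length. The members and lists were chosen with earlier results of these data known. No pairing by replicate number was seen: the correlations between deviations of libraries with the same number were -0.076, -0.019 and 0.018. Whether libraries with the same number were handled together is not given. Lists of other ribosomal, assembly and cell marker genes were not used, since neither the tables nor the reference pair their identifiers with symbols.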

Additional observations from a re-analysis of the deposited data

How the results depend on the processing

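The 27 genes kept a negative median log2 change from ZT0 to ZT2 and a positive one from ZT2 to ZT12 in all alternatives run; leaving out each library gave -0.60 to -0.36 and 0.31 to 1.16, and for ZT0 to ZT12 -0.33 to 0.54, where the sign turned without ZT12 replicate 2 and without ZT0 replicate 2 (-0.07). Scaling to the same summed RPKM moved the median of all tested genes to -0.11 and 0.17 for ZT2 against ZT0 and ZT12 against ZT2, and the 27 genes to -0.56 and 0.87. For ZT12 against ZT2 the 1 gene called became 0 with a pseudocount of 0.1, without the variance trend, on the 4 libraries compared and with array weights, 2 at an adjusted p of 0.1 and 4 with voom on the recovered reads (Rpl4, Rpl22, Rpl30 and Rpl32). With the replicate number as a block, although no pairing by number was seen, it was 0. Fits that leave out a library take the spread of the single remaining library from the other time points. The F test called 1 of the 27 at an adjusted p of 0.1 and 1 with voom, and 0 to 1 without each library; ZT2 against ZT0 and ZT12 against ZT0 called 0 in every alternative. For these counts the cause was not tested. Over all tested genes the counts of 2, 79, 172 and 105 (F test last) became 1, 32, 80 and 34 without the trend, 11, 259, 356 and 350 with voom, 8, 179, 423 and 305 at an adjusted p of 0.1, 2, 414, 57 and 211 with array weights, and 2, 51, 113 and 76 with the block. On the 4 libraries compared the first 3 were 1, 282 and 39, and leaving out each library gave 0 to 248, 3 to 283, 5 to 597 and 5 to 612. A pseudocount of 0.1 gave 6 for ZT2 against ZT0, and a filter at 5 RPKM gave 3, and 124 for ZT12 against ZT0. The 27 genes held 0.129% of reads, which was 0.319% as a share of summed RPKM, 0.0473% without the 8 highest genes, and 0.114% to 0.137% without each library.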
